A study of Mus musculus with 6 samples.

Results

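Thyroid hormone genes were examined in the hearts of tail-suspended mice: the receptors Thra and Thrb, the deiodinases Dio1, Dio2 and Dio3, the transporter Slc16a10, and Thrsp, a lipogenic gene named for its response to the hormone. Members were all non-control probes that the array's design assigned to these gene names, 7 of 28909 names and 12 of 55681 probes. The study compared cardiac muscle of male C57BL/6 mice after 28 days of tail-suspension, which unloads the hindlimbs to simulate microgravity, with sham mice kept in the same space under the same feeding. Both groups were wild type as far as the labels state, with no drug given. The labels give 10 weeks as the age at the start of suspension and 11 weeks as the age of every animal, and the time between these ages is shorter than the suspension. Total RNA of 3 sham and 3 tail-suspended hearts was hybridised in 1 colour to 6 arrays. The labels do not state that each sample was a separate animal, so p-values measure only the spread between these samples.

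Thyroid hormone enters cells through membrane transporters and acts mainly through nuclear receptors, which bind DNA as partners of retinoid X receptors. The circulating prohormone T4 is turned into the active T3 by the outer-ring deiodinases, encoded by Dio1 and Dio2, and both forms are inactivated by the enzyme that Dio3 encodes. In the rodent heart the hormone is known to favor the fast myosin heavy chain gene Myh6 and the calcium pump gene Atp2a2 over the slow myosin gene Myh7 and the pump inhibitor gene Pln.

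The 6 arrays shared 1 slide and 1 scan, with the 3 sham arrays and tail-suspension array 1 in 1 row and tail-suspension arrays 2 and 3 in the other. Between 50.9% and 53.4% of probes per array were well above background, and no spot was saturated. A level is the log2 processed intensity minus the array's 75th percentile, so 0 marks that percentile, and a change is the mean level in tail-suspension minus that in sham. The test covered probes whose signal was well above background throughout at least 1 group, and the tested probe with the highest mean level stood for its gene. All 8 cardiomyocyte markers examined were well above background on all 6 arrays, and the log2 of their summed signal was 12.3 in every sham array and 12.2 to 12.3 in tail-suspension. Of these, Actc1 fell by 0.33 (adjusted p = 0.0364), a call lost without any one of the 6 arrays (adjusted p up to 0.121). At an unadjusted p under 0.05, 1 marker of the list, Nppa, was higher and 1 was lower. Nppa read 1.45 with groups that overlapped (adjusted p = 0.0886).

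The probes for which a gene gave different readings are shown first, because each result below belongs to a probe and not to a gene as a whole. Coordinates are on mm9, as the files give them, and each line holds the first 30 bases of a 60-base probe, 5′ to 3′. The 2 probes of Slc16a10 were designed against different transcripts, variant 1 (NM_001114332, chr10:39756480-39756539, minus strand) and variant 2 (NM_028247, chr10:39795726-39795785, minus strand).
Slc16a10 probe 1: gccaacctaaaccttgagtctgttaaatga
Slc16a10 probe 2: tgtgagatatttctggaaaacacgagaatt
The 2 probes of Thra carry the same RefSeq transcript (NM_178060) but list different Ensembl transcripts. Probe 1 lies at chr11:98626356-98626415 on the plus strand, and probe 2 spans 807 bases of the genome, chr11:98617475-98618281 on the plus strand, so its bases are not contiguous there.
Thra probe 1: aaatggtagtcatcctaactgcactttgga
Thra probe 2: aaagcagcatgtcagggtatatccctagtt

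Of the 7 members, 5 were tested, and none was higher and 1, Slc16a10, was lower in tail-suspension at an adjusted p under 0.05 (limma, Benjamini-Hochberg). Over all 17138 genes tested, 10.6% were higher and 10.5% lower, 21.2% in either direction. With 5 tested members, 1 call is too few to compare with these shares. By probe, 1 of the 8 tested member probes was called, beside 20.4% of all tested probes in either direction and 9.57% lower. At an unadjusted p under 0.05, no member was higher and Slc16a10 was lower. The methods' t-test put 1 member and 9498 of 28030 tested probes under that p, and after adjustment it called no member. The median change of the 5 tested members was -0.03, beside -0.01 over all genes tested. The groups did not overlap for 2 of the 8 tested member probes, Slc16a10 probe 1 and Thra probe 2, whereas 44% of all tested probes had groups that did not overlap. With 1 probe per gene, that held for 1 of 5 tested members, beside 46.4% of all genes tested. Thra, Thrb, Dio2 and Thrsp did not pass the test, and Dio1 and Dio3 could not be tested.

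**Figure D1:**
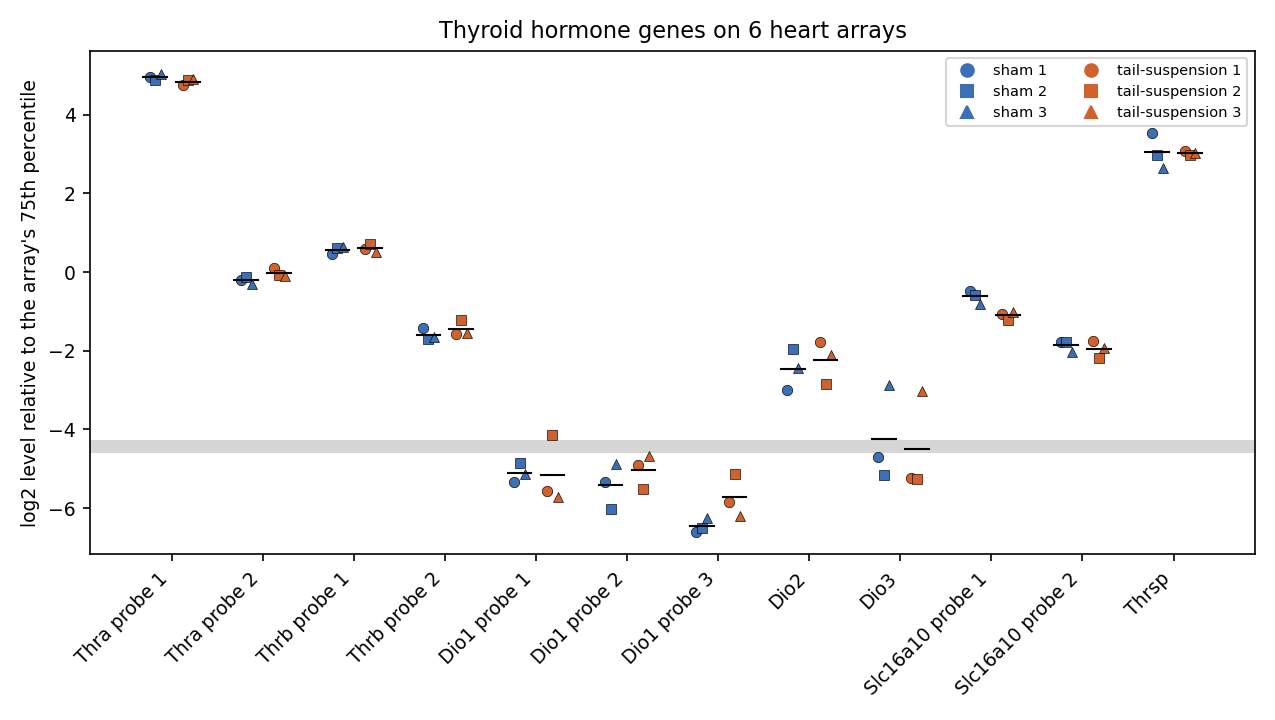
Level of each of the 12 member probes (log2 processed intensity minus the array's 75th percentile) on each array, with sham in blue, tail-suspension in orange, marker shape for the replicate number and a black line at each group's mean of 3 arrays. The gray band spans the lowest level called well above background on the 6 arrays; the 3 probes of Dio1 lie at or below it apart from 1 point, and levels of different probes are not comparable with each other.

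Slc16a10 encodes a carrier of aromatic amino acids that also exports and imports thyroid hormones. Its probe 1, for variant 1, had levels of -0.48, -0.58 and -0.81 in sham and -1.06, -1.22 and -1.02 in tail-suspension. Each tail-suspension array was below every sham array, and the narrowest gap lay between sham array 3 and tail-suspension array 3. The probe fell by 0.48 on the log2 scale (SE 0.12, 95% interval -0.76 to -0.20, adjusted p = 0.0335), a 1.40-fold lower signal. An exact two-sided permutation test of this probe gave p = 0.1, the smallest that 3 arrays against 3 allow.

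Probe 2 of Slc16a10, for variant 2, had levels of -1.78, -1.78 and -2.04 in sham and -1.77, -2.19 and -1.94 in tail-suspension. Its groups overlapped, and its change was -0.10 (SE 0.14, 95% interval -0.44 to 0.23, adjusted p = 0.620). The level of probe 1 minus that of probe 2 on the same array was 1.30, 1.20 and 1.23 in sham and 0.70, 0.98 and 0.92 in tail-suspension. This within-array difference did not overlap between groups, as for 28% of the 3924 gene pairs of probes compared in this way, and it was 0.38 smaller in tail-suspension (95% interval of the difference of changes -0.60 to -0.16). Adjusted over those pairs, of which 2.75% passed, its p was 0.0822, so the changes of the transcript variants were not shown to differ.

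The call on Slc16a10 rested on each of 5 arrays. It held without sham array 3 (adjusted p = 0.0304) and was lost without sham array 1 (0.0995), sham array 2 (0.113), tail-suspension array 1 (0.0766), array 2 (0.0670) or array 3 (0.0782), with changes of -0.41 to -0.57 throughout. The tail-suspension array that shared the slide row of the sham arrays lay 0.44 below their mean, and the arrays of the other row 0.50 below it. With the row as a block the change was -0.44. As the other row held no sham array, any change with this block is that of tail-suspension array 1 alone against the sham arrays.

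**Figure D2:**
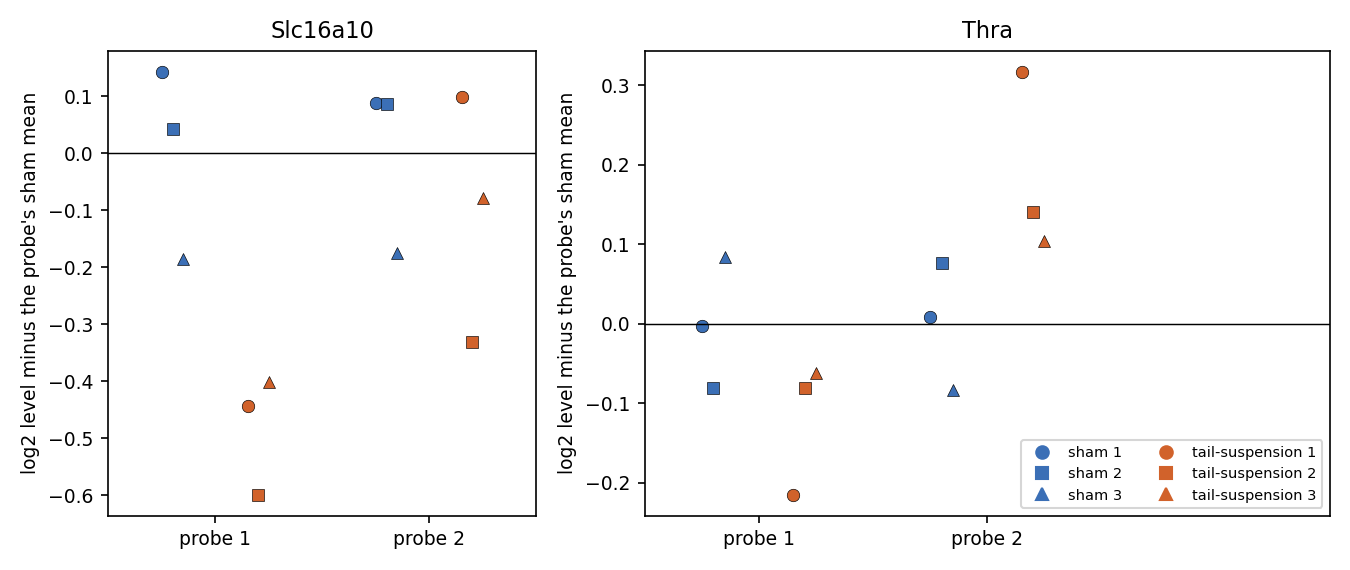
Level of each probe of Slc16a10 (left) and Thra (right) on each array minus the mean of the 3 sham arrays for that probe, on the log2 scale, with sham in blue, tail-suspension in orange and marker shape for the replicate number. For Slc16a10, all 3 tail-suspension points of probe 1 lie below the sham points, and those of probe 2 overlap them; for Thra, the tail-suspension points of probe 2 lie above the sham points.

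Markers of several other cell types moved between the groups beside Slc16a10. Here and in the lists below, counts at an adjusted p stand beside 10.6% higher and 10.5% lower of all genes tested. No list was tested as a set. Counts at an unadjusted p are from limma, for which the share of all genes is not given here. The methods' t-test put 9498 of 28030 tested probes at an unadjusted p under 0.05, so such counts are common on these arrays. Of 6 endothelial markers, Kdr, Tie1 and Emcn were lower (changes -0.55, -0.43 and -0.50; adjusted p 0.0159, 0.0476 and 0.0406), and the log2 of the list's summed signal was 5.37 to 5.47 in sham and 4.93 to 5.10 in tail-suspension. Kdr was called on 1 of its 2 tested probes. Of 7 tested neutrophil markers, S100a8, S100a9, Retnlg and Ltf were higher and none was lower, while at an unadjusted p under 0.05 6 were higher and 1, Elane, was lower (change -0.30, adjusted p = 0.0674). The log2 of the summed signal of the tested neutrophil list was 7.17 to 7.43 in sham and 7.70 to 7.89 in tail-suspension, most of it from the uncalled Csf3r (change 0.30, adjusted p = 0.0926). Retnlg and Ltf, which no sham array showed well above background and which were therefore tested only through the tail-suspension group, were at least 12.3-fold and 6.26-fold higher in tail-suspension. Their p-values describe the fit and do not support the direction. The call on Kdr was lost without sham array 1 or 2 (adjusted p up to 0.0650), that on Ltf without sham array 2 (0.0532), that on Tie1 without any array but tail-suspension array 2 (up to 0.132), and that on Emcn without any array but tail-suspension array 1 (up to 0.122). Of 7 fibroblast markers, Col3a1 fell by 1.88 (adjusted p = 0.0177), a call lost without sham array 2 or tail-suspension array 1 (up to 0.0620). At an unadjusted p under 0.05, 3 of the list were lower and 1, Dcn, was higher (change 0.34, adjusted p = 0.0548). The log2 summed signal, most of it from Dcn, was 8.12 to 8.20 in sham and 8.11 to 8.44 in tail-suspension. Of 5 tested macrophage markers, Cd163, tested only through the tail-suspension group, was at least 3.39-fold higher (adjusted p = 0.0240), a call lost without tail-suspension array 1 or 3 (up to 0.0784), and the log2 summed signal was 4.53 to 4.92 in sham and 4.60 to 5.23 in tail-suspension. The p-value of Cd163, too, describes the fit and does not support the direction. Of 5 tested erythroid markers, none was called and 4 were lower at an unadjusted p under 0.05, among them Hba-a1 (change -1.50, adjusted p = 0.0506), and the log2 summed signal was 8.84 to 9.54 in sham and 6.81 to 8.53 in tail-suspension. The part of these cells in the change of Slc16a10 was not tested, and in heart tissue fewer cells of a type and less RNA per cell cannot be told apart.

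Over the 6 arrays, the 3 genes whose levels were most like those of Slc16a10 probe 1 were Plekha8, 1110008F13Rik and Ccdc42b, with Pearson's r of 0.999, 0.999 and 0.998. Of 16294 other genes well above background on all arrays, 425 had r over 0.95 with it. The 6 arrays shared 1 slide and the 2 groups, so this is a description of likeness only.

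Among 9 other genes whose products carry thyroid hormone or form part of such carriers, 6 were tested, 2 were higher and 1 was lower. Over all genes tested, 10.6% were higher and 10.5% lower. Slc3a2, the heavy chain shared by amino acid exchangers, had processed intensities of 3258, 3270 and 3407 in sham and 6867, 6705 and 7419 in tail-suspension. It was higher by 0.87 (SE 0.09, 1.82-fold, adjusted p = 0.00380) and remained past the threshold under all 18 alternatives run on the genes of these lists, with each array left out among them.

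The light chains that pair with Slc3a2 gave calls in opposite directions, and those on Slc7a5 differed by probe. Slc7a8 was higher by 0.89 (adjusted p = 0.0374). Slc7a5 fell by 0.57 on its brighter probe (adjusted p = 0.0359), whereas its other probe read 0.40 with an adjusted p of 0.120. Both calls were lost without any one of the sham arrays or of tail-suspension arrays 1 and 3, with adjusted p up to 0.123 for Slc7a8 and 0.110 for Slc7a5.

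Slco1a4, an organic anion carrier, was well above background on all tail-suspension arrays and no sham array, so it was tested only through the group where it was brighter. Its signal was at least 1.73-fold higher in tail-suspension, and with an adjusted p of 0.0504 it missed the threshold. Slc10a1, a bile acid carrier, read 0.04 on 1 very bright probe while its other probe was not well above background on any array, so the gene has no settled reading. Slco1c1, Slco1a5 and Slc17a4 were not well above background on any array.

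The receptors did not pass the test. Thra encodes the receptor type that predominates in heart muscle, together with a splice form that does not bind the hormone. Thra probe 1 had levels of 4.95, 4.88 and 5.04 in sham and 4.74, 4.88 and 4.89 in tail-suspension, which overlapped, and its change was -0.12 (SE 0.09, 95% interval -0.34 to 0.10, adjusted p = 0.379).

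Probe 2 of Thra had levels of -0.21, -0.14 and -0.30 in sham and 0.10, -0.08 and -0.11 in tail-suspension. Every tail-suspension array was above every sham array, yet the change of 0.19 missed the threshold (SE 0.10, 95% interval -0.05 to 0.42, adjusted p = 0.207). The within-array difference of the 2 Thra probes was 5.16, 5.02 and 5.34 in sham and 4.64, 4.95 and 5.01 in tail-suspension. It did not overlap between groups, but the changes of the probes were not shown to differ (difference -0.31, 95% interval -0.62 to 0.01, adjusted p = 0.243).

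Thrb encodes the other receptor. Its probe 1 (chr14:18868800-18868859, plus strand) had levels of 0.47, 0.60 and 0.64 in sham and 0.58, 0.71 and 0.52 in tail-suspension. Its change was 0.03 (SE 0.10, 95% interval -0.20 to 0.26, adjusted p = 0.825). Probe 2 (chr14:18869432-18869491, plus strand) read 0.14 (SE 0.13, adjusted p = 0.488), and on both probes the groups overlapped. The intervals on probe 1 of Thra and of Thrb leave room for changes of up to 0.34 on the log2 scale in 1 direction.

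Nr1d1, a circadian repressor gene, lies on the strand opposite to Thra, with its probe a few kilobases downstream of Thra probe 1. Its processed intensities were 444, 415 and 1275 in sham and 600, 1010 and 762 in tail-suspension. Sham array 3 was the highest of the 6, the groups overlapped, and the change was 0.11 (SE 0.46, adjusted p = 0.875).

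Of 16 receptor partners and coregulators, 15 were tested, 2 were higher and none was lower. At an unadjusted p under 0.05, 3 were higher and 1 was lower, and the methods' t-test called none in either direction. All genes tested gave shares of 10.6% higher and 10.5% lower. Gps2, a subunit of the corepressor complex of unoccupied receptors, was higher by 0.50 on both of its probes (adjusted p 0.0240 and 0.0171). Other probes of 2 genes of the list were called lower, although the brightest probe of each gene was not called: 1 of 3 probes of Ncor1, a corepressor gene, fell by 0.78 (adjusted p = 0.00674), and 1 of 4 probes of Med1, a Mediator subunit gene, fell by 0.47 (adjusted p = 0.0343) while its brightest probe read 0.28 (adjusted p = 0.0690). Ep300, a coactivating histone acetyltransferase, was higher by 0.49 (adjusted p = 0.0237). The calls on Gps2 (brightest probe) and Ep300 were each lost in 4 of the 6 fits without 1 array, with adjusted p up to 0.0913: for Gps2 without any sham array or tail-suspension array 1, and for Ep300 without sham array 1 or 2 or tail-suspension array 1 or 3. The median change of the tested list was -0.01, and Crym, which encodes a cytosolic T3-binding protein, was well above background on 2 arrays of each group and was not tested.

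**Figure D3:**
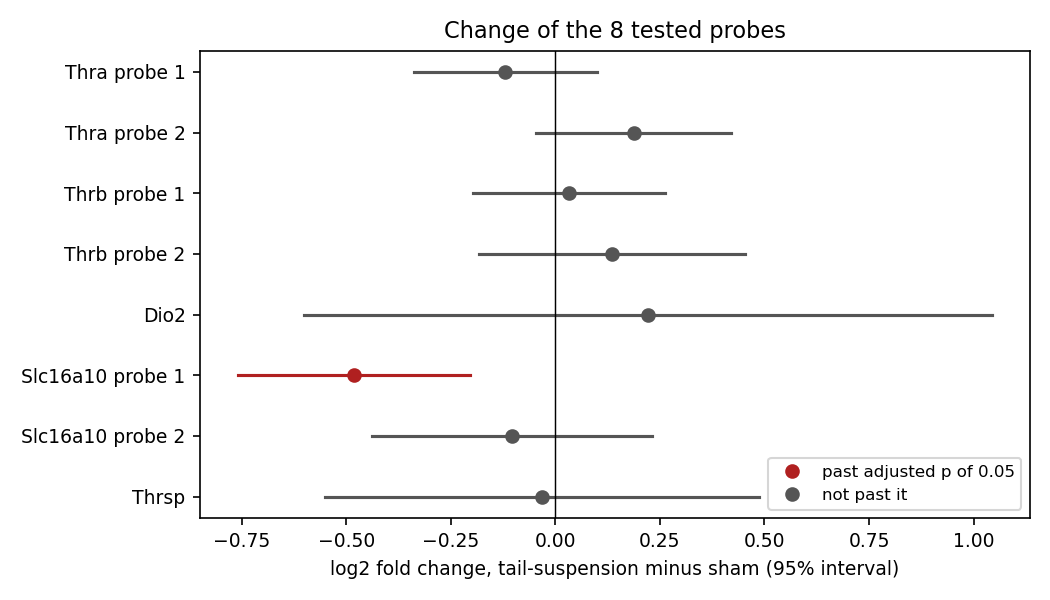
Change of each tested member probe, tail-suspension minus sham on the log2 scale, as a point with its 95% interval from limma (3 arrays per group). Slc16a10 probe 1, in red, is the tested member probe past an adjusted p of 0.05; the interval of Dio2 is the widest of the 8.

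The deiodinases were dim. The 3 probes of Dio1, which encodes the deiodinase best known from liver and kidney, were not well above background on any of the 6 arrays, with processed intensities of 3.33 to 11.0 in sham and 5.11 to 21.2 in tail-suspension. No fold change is given for them.

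Dio2 encodes the enzyme that makes T3 inside cells. Its probe (chr12:91963235-91963294, minus strand) was well above background on all 6 arrays, with levels of -2.99, -1.96 and -2.44 in sham and -1.78, -2.85 and -2.12 in tail-suspension. The lowest array was a sham array and the highest a tail-suspension array, with both groups spread across nearly the same range. The change of 0.22 was smaller than the SD within either group, 0.51 in sham and 0.55 in tail-suspension (n = 3 each), and its interval ran from -0.60 to 1.04 (SE 0.34, adjusted p = 0.669).

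Deiodinases carry selenocysteine, and of 7 genes that serve its insertion or synthesis 1 was higher and 2 were lower (10.6% and 10.5% of all genes tested). Pstk, a kinase of the selenocysteine transfer RNA, fell by 0.59 (adjusted p = 0.0138). The call on Pstk was lost without sham array 2 or tail-suspension array 3 (adjusted p up to 0.0607). Secisbp2, which binds the insertion element, fell by 0.31 on 1 probe (adjusted p = 0.0411) and read 0.01 on the other. Rpl30, a ribosomal protein that binds the same element, was higher by 0.30 on its brightest probe (adjusted p = 0.0484), and 2 of its 3 tested probes were called. The call on Secisbp2 was lost without any one of 5 arrays, all but tail-suspension array 2, and that on Rpl30 without any one of the 6, with adjusted p up to 0.136 and 0.142. Of 6 genes that set the turnover of the Dio2 protein, such as Wsb1 and Usp33, none was called at an adjusted p under 0.05 by limma or the methods' t-test, and 1 was lower at an unadjusted p under 0.05.

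Dio3 encodes the inactivating deiodinase. Its probe (chr12:111518792-111518851, plus strand) had processed intensities of 12.3, 8.91 and 41.0 in sham and 8.97, 9.74 and 46.5 in tail-suspension. It was well above background on sham array 3 and tail-suspension array 3 and on no other, so it was not tested and no fold is given. The 2 arrays well above background were divided evenly between the groups.

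Dio3os, a noncoding RNA gene on the strand opposite to Dio3, gave a dimmer signal in tail-suspension. Its probes are shown because they differ by 3 bases, in capitals, and carry the same coordinates, chr12:111514921-111514980 on the minus strand.
Dio3os probe 1: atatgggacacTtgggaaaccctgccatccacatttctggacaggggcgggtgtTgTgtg
Dio3os probe 2: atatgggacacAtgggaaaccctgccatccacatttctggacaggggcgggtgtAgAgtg
Probe 1 had processed intensities of 32.0, 33.1 and 49.9 in sham and 12.7, 12.5 and 9.35 in tail-suspension. It was well above background on all sham arrays and no tail-suspension array, so the fall has only a bound: the signal was at least 2.60-fold lower in tail-suspension (adjusted p = 0.00545). The probe entered the test only through the sham group, where it was brighter, so this p is a description of the fit and does not support the direction.

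Probe 2 of Dio3os had processed intensities of 25.1, 27.4 and 55.1 in sham and 17.6, 15.0 and 5.08 in tail-suspension. Its groups did not overlap either, and it missed the threshold (adjusted p = 0.0619). With the slide row as a block, the adjusted p of probe 1 was 0.0773. All of these signals lay near the lowest intensities called well above background, which were 14.0 to 19.5 on the 6 arrays.

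**Figure D4:**
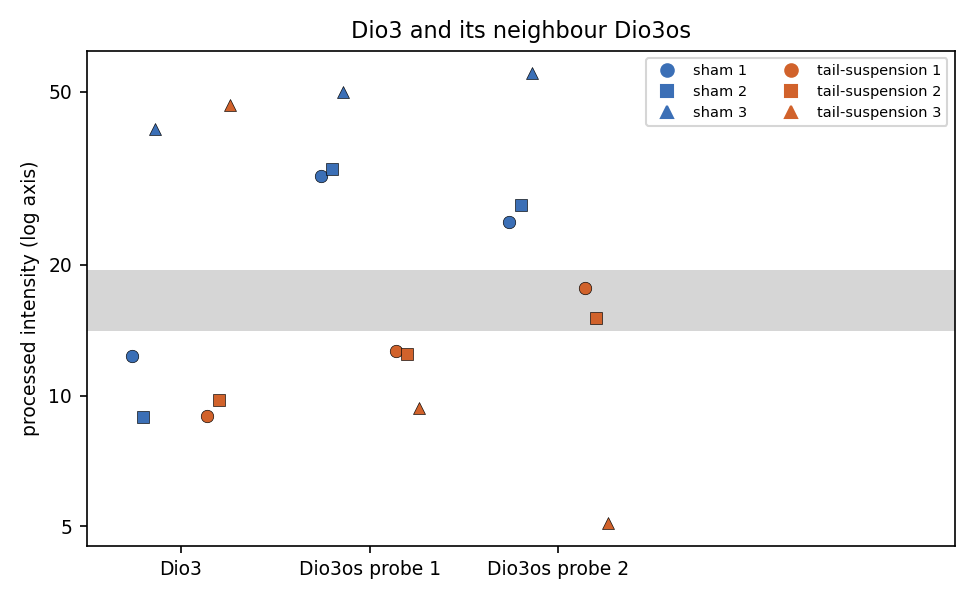
Processed intensity (log axis) of the Dio3 probe and the 2 Dio3os probes on each array, with sham in blue, tail-suspension in orange and marker shape for the replicate number. The gray band spans the lowest intensity called well above background on the 6 arrays, 14.0 to 19.5; both probes of Dio3os separate the groups, and Dio3 is above the band on 1 array of each group.

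Thrsp, also called Spot14, promotes fatty acid synthesis and is induced by thyroid hormone in liver and fat. Its probe (chr7:104561649-104561708, minus strand) had levels of 3.54, 2.99 and 2.65 in sham and 3.09, 2.96 and 3.03 in tail-suspension. All 3 tail-suspension arrays lay within the sham range, and the change was -0.03 (SE 0.22, 95% interval -0.55 to 0.49, adjusted p = 0.925). The SD was 0.45 in sham and 0.06 in tail-suspension (n = 3 each), and this difference in spread was not tested. Its sign turned when sham array 1 was left out (0.21, adjusted p = 0.341).

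Of 12 lipogenic genes, Thrsp among them, all were tested, 1 was higher and none was lower. At an unadjusted p under 0.05, 3 were higher and 2 were lower. Acaca, which encodes the acetyl-CoA carboxylase that commits carbon to fatty acids, was higher by 0.78 (SE 0.13, adjusted p = 0.0110), and it remained past the threshold under all 18 alternatives. Its second well detected probe read 0.81 (adjusted p = 0.0152). The median change of the list was -0.02.

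Most markers of fat cells were too dim to test. Of 12 adipocyte markers, 4 were tested and none was called (1 was higher at an unadjusted p under 0.05), and Lep, Ucp1 and Elovl3 were not well above background on any array. Adipoq was well above background on 1 array of each group, sham array 1 and tail-suspension array 1. Cfd had processed intensities of 79.0, 27.5 and 3.65 in sham and 690.5, 69.1 and 106.6 in tail-suspension, and the log2 of the list's summed signal over its tested genes, which include the heart-expressed Lpl and Fabp4, was 9.13 to 9.37 in sham and 9.43 to 9.46 in tail-suspension. The part of fat cells in the level of Thrsp was not tested.

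Most markers of thyroid tissue were not detected. Of 8 thyroid gland markers, Tshr, Slc5a5, Pax8, Nkx2-1 and Iyd were not well above background on any array, and Foxe1 was so on 1 tail-suspension array. Tg was the tested marker of this list and was higher by 0.78 (SE 0.19, adjusted p = 0.0340). The call on Tg was lost without any array but tail-suspension array 2 (adjusted p up to 0.115).

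Of 18 cardiac genes known to be raised by thyroid hormone, 17 were tested, 2 were higher and 1 was lower, with a median change of -0.09. At an unadjusted p under 0.05, 3 were higher and 4 were lower, and after adjustment the methods' t-test called none. With array weights, 3 were higher and 4 lower at an adjusted p under 0.05. The shares over all genes tested were 10.6% higher and 10.5% lower. Klf9, a transcription factor gene with a receptor binding element, was higher by 0.74 (SE 0.14, 1.67-fold, adjusted p = 0.0160), with processed intensities of 3971, 3392 and 4463 in sham and 6914, 7581 and 8342 in tail-suspension. Ucp2, a mitochondrial carrier, was higher by 0.65 (adjusted p = 0.0305). Me1, the cytosolic malic enzyme, fell by 0.67 (adjusted p = 0.0170), and its other probes fell by 0.49 and 0.64. The call on Klf9 was lost without sham array 1 or 2 or tail-suspension array 3 (adjusted p up to 0.0599), that on Ucp2 without any array but sham array 1 (up to 0.0936), and that on Me1 without sham array 1 or 2 or tail-suspension array 1 or 3 (up to 0.0690).

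For several other genes of that list, the brighter probe was not called and the other was, with both changing in the same direction. Whether the changes of their probes differ is not reported here. Myh6 read -0.09 on its brighter probe (adjusted p = 0.603) and fell by 1.47 on its dimmer probe (adjusted p = 0.00957), which had processed intensities of 13164, 11373 and 13578 in sham and 5102, 7294 and 3949 in tail-suspension. Atp2a2 read -0.29 on its brighter probe (adjusted p = 0.0599) and fell by 0.64 on the other (adjusted p = 0.0369). Hcn2, a pacemaker channel gene, read -0.17 on its brighter probe (adjusted p = 0.171) and fell by 0.70 on the other (adjusted p = 0.0342). Kcna5, a potassium channel gene, read 0.72 on its brighter probe (adjusted p = 0.0715) and was higher by 0.80 on the other (adjusted p = 0.0471). Hr, a corepressor gene with 1 probe, read -0.66 (adjusted p = 0.0841).

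Of 5 cardiac genes known to be lowered by the hormone, all were tested, 2 were higher and none was lower (1 was lower at an unadjusted p under 0.05). These counts stand beside 10.6% higher and 10.5% lower of all genes tested. Myh7 had processed intensities of 37055, 124674 and 81419 in sham and 339524, 396767 and 390821 in tail-suspension, with no overlap. It was higher by 2.17 (SE 0.41, 4.49-fold, adjusted p = 0.0178), a call lost without tail-suspension array 3 (adjusted p = 0.0599). Adcy6, an adenylyl cyclase gene, had processed intensities of 3538, 3802 and 3491 in sham and 8560, 8609 and 10263 in tail-suspension. It was higher by 1.13 (SE 0.10, 2.18-fold, adjusted p = 0.00236) and remained past the threshold under all 18 alternatives. Pln read -0.23 (adjusted p = 0.107), Slc8a1 0.15 (adjusted p = 0.558) and Adcy5 0.25 (adjusted p = 0.364). Levels of the hormone itself were not measured on these arrays.

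**Figure D5:**
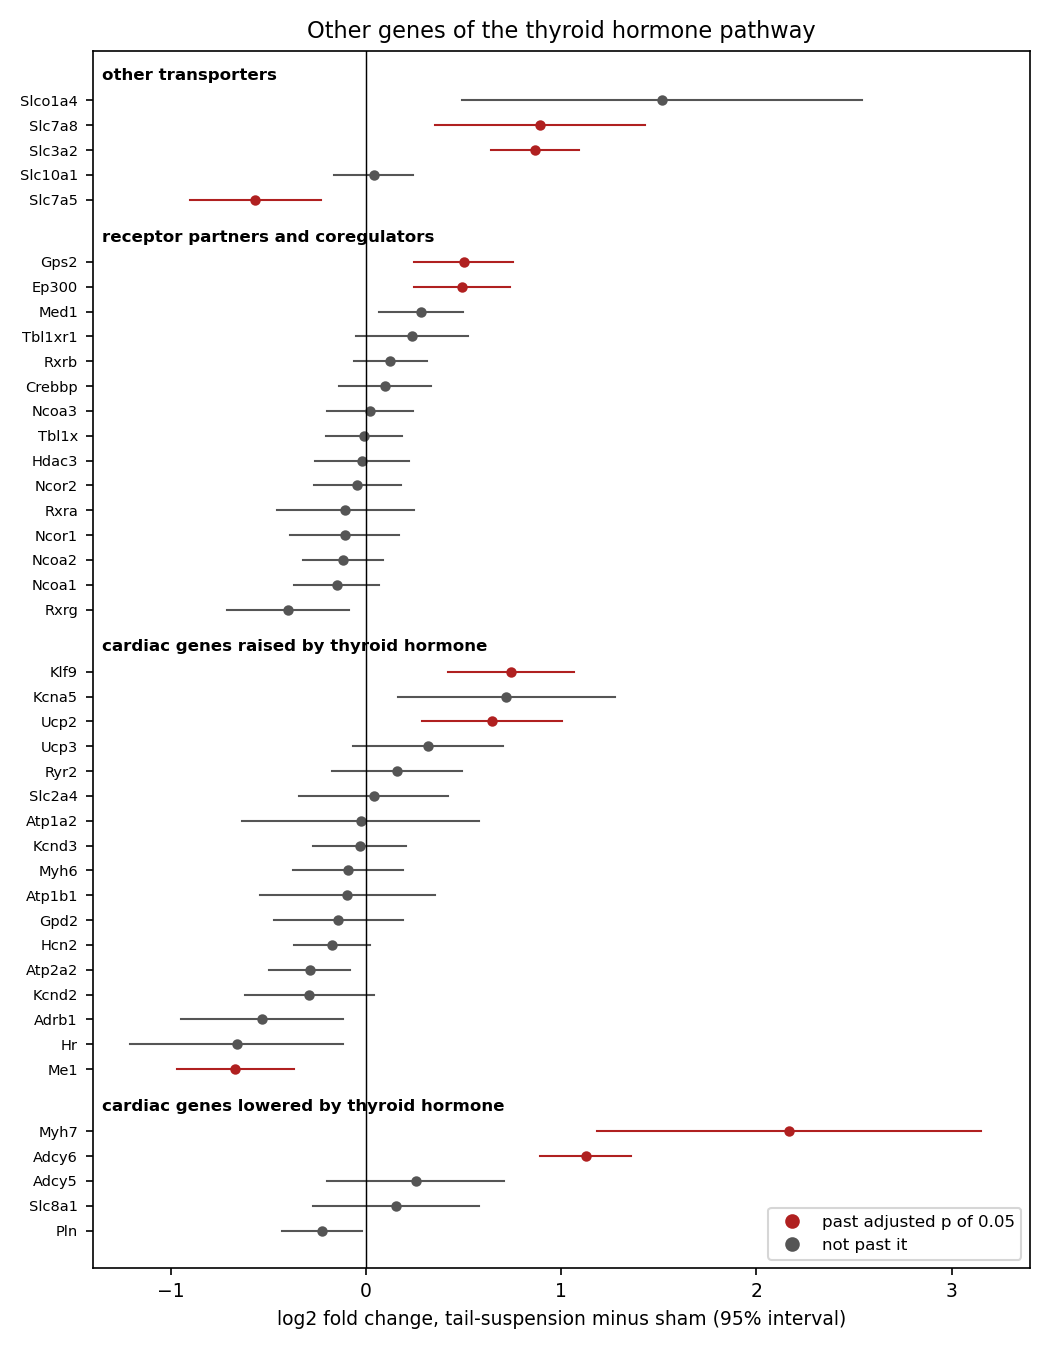
Change of tested genes of 4 lists of the thyroid hormone pathway, tail-suspension minus sham on the log2 scale, as a point with its 95% interval from limma (3 arrays per group), read from the brightest tested probe and sorted within each list. Red marks an adjusted p under 0.05: 2 higher and 1 lower transporter, 2 higher partners, 2 higher and 1 lower gene of those raised by the hormone, and 2 higher genes of those lowered by it.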

How the data were processed

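RNA of 3 sham and 3 tail-suspended hearts was measured on 1-colour Agilent arrays. The authors deposited each array's scanner output, in which Agilent Feature Extraction 10.7.1.1 (per the labels) gave a mean, a background and a processed intensity per spot. They also deposited log2 values for these arrays in 1 table, whose columns had medians of 4.33 and correlated at 0.999 with the log2 processed intensity; how these were centered is not given in the sources used here. Genes are named as in the array's design.

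In R 4.3.3, the log2 processed intensity minus each array's 75th percentile was computed, without control spots and the 146 to 212 outlier-flagged spots per array, and spots of a probe were averaged. A probe was well above background where at least 50% of its spots were. Probes that met this on all arrays of a group, 28030 of 55681, were tested with limma 3.58.1 (lmFit, eBayes) on all 6 arrays without covariates, with Benjamini-Hochberg adjustment over all of them and a threshold of 0.05. Steps were tested on simulated data. A bound sets the bright group's mean against the dim group's mean of the higher of its own level and the lowest level well above background per array. Members and lists were chosen with earlier results of these data known. Named are all members, genes of lists of at most 10, up to 4 called genes per direction of longer lists, preset hormone targets, neighbours of Thra and Dio3, and the 3 genes most correlated with a called member. The comparison of probe pairs was added after the levels were seen, Adipoq, Cfd, Ncor1, Med1, Kcna5 and the undetected markers named were chosen after their values were seen, and Crym was named as the untested gene of its list. Some genes of the lists are not reported here by name. Alternatives changed the background correction, normalization, filter, variance model, test, block, probe rule or arrays.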

Additional observations from a re-analysis of the deposited data

How the results depend on the processing

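Across 19 alternatives, Slc16a10 probe 1 kept its direction in 19 and passed the threshold in 9. Its change stayed at -0.48 with no filter on dim probes (adjusted p = 0.105), the methods' t-test (0.0751) and the replicate number as a block (0.0760), was -0.44 with the slide row as a block and -0.29 for the mean of its probes (0.130), and was -0.57 to -0.41 with 1 array left out. The count of lower members was 0 with no filter, the t-test, the replicate block, the row block, the mean of probes and a minimum of 2-fold, and 0 to 1 with 1 array left out. Signs of uncalled members turned: Thrsp to 0.010 with normexp and 0.028 with the row block, Thra to 0.034 for the mean of its probes, and, with 1 array left out, Thrsp ranged from -0.24 to 0.21, Dio2 from -0.041 to 0.52 and Thrb from -0.021 to 0.074. No member other than Slc16a10 passed the threshold under any alternative run. No change is given for Dio1 and Dio3 under any alternative, since Dio1 was not well above background on any array and Dio3 was so on only 1 array of each group.

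Of 28030 probes, 3023 were higher and 2683 lower. These counts were 1041 and 790 with no filter, 1533 and 1250 with the t-test (2783 in all), 1714 and 1403 with the replicate block, 320 and 177 with the row block and 757 and 460 at 2-fold. Array weights gave 4465 higher and 4355 lower, and 1 array left out gave 965 to 2931 higher and 726 to 2580 lower. Same-numbered arrays did not deviate together (correlations -0.02, -0.02 and 0.05). With 3 arrays a group, these values cannot settle whether the numbers mark a shared step. Of 27 calls among list genes, the member included, 7 held with each array left out. Among those that held were Retnlg and Dio3os, each tested only through the group where it was brighter. The slide row as a block sets tail-suspension array 1 alone against the sham arrays, so it does not cover the other tail-suspension arrays. The changes of Slc3a2, Adcy6 and Acaca were then 0.94, 1.13 and 1.01. Most named list calls of the report were lost with this block, each in the same direction. The 3 arrays a group limit the precision, and the dim signals of Dio2, Dio3 and Dio3os lie close to background.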
